A study of Rattus norvegicus with 3 samples.

Results

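Single cells of the rat embryo's cerebral cortex were examined for 10 tubulin genes: Tuba1a, Tuba1b and Tuba1c for alpha tubulin, Tubb2a, Tubb2b, Tubb3, Tubb4b, Tubb5 and Tubb6 for beta tubulin, and Tubg1 for gamma tubulin. They were taken by symbol from the 29772 genes of the deposited files, and 10 of 10 were found. In all, 20 genes carried a tubulin symbol. The study profiled cortical cells of wild-type rats, freshly prepared and dissociated with papain according to the labels, at embryonic days 14, 16 and 18. Each age has 1 library of 3′ single-cell RNA sequencing, called here by its label, E14, E16 or E18. No allele or agent was applied. The labels do not say how many embryos went into a library, so differences have no check against replicates and no test could be run. Every interval is a 95% interval and covers counting error only.

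Alpha and beta tubulin pair into the dimers from which microtubules are built, and gamma tubulin nucleates them. Dividing progenitors need microtubules for the mitotic spindle, while migrating neurons and growing axons need them as scaffold and track. Mammals carry several genes for each tubulin, the isotypes, whose proteins are closely alike. Tuba1a is the main alpha isotype of young neurons and TUBB3 is a standard marker protein of neurons. Mutations in the human counterparts of Tuba1a, Tubb2b, Tubb3, Tubb5 and Tubg1 are known to cause malformations of the cortex.

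The cells that passed all filters numbered 4286 in E14, 4977 in E16 and 5431 in E18. The files held 62740631 to 80974234 unique molecular identifiers (UMIs) per library. Clustering without the tubulin genes gave 26 clusters, of which 24 were named from marker genes. Radial glia, the cortical stem cells, numbered 405, 3019 and 1816 cells, and intermediate progenitors, their Eomes-marked daughters, 440, 399 and 1052. Newborn excitatory neurons numbered 727 in E14 and 886 in E18, excitatory neurons that the markers could not place as newborn or maturing ("not split") 1050 and 1016, and maturing excitatory neurons 1557 and 362. In E16 these 3 neuron classes held 2 cells together. Its neurons sat mostly in an unnamed cluster of 598 E16 cells led by Calb1 and Calb2, which had markers of newborn neurons and of Cajal-Retzius cells. All 10 radial glia markers and all 9 intermediate progenitor markers had UMIs in their class in every library, and all 9 newborn and 12 maturing neuron markers in theirs. Such presence does not set a class apart, as all 9 newborn markers also had UMIs in radial glia of every library. Summed, they were at 155 UMIs per 1000000 UMIs in E14 radial glia and 3298 in E14 newborn neurons. In E18 these values were 92.4 and 4470. In 12 clusters, holding 62.7% of cells, over 90% came from 1 library, so the cells of a class in 2 libraries may sit in separate clusters. Between 7 and 8 kept barcodes were shared by any pair of libraries.

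The libraries did not run in the order of their labels. The embryonic share of haemoglobin UMIs was 2.57% in E14, 67.4% in E16 and 22.0% in E18. In radial glia, Hmga2, a gene of early stem cells, was at 11.7, 225 and 21.2 UMIs per 1000000 UMIs (CPM). Aldoc, a gene of glia, was at 732, 17.0 and 241 CPM, and Tnc, a matrix gene of late radial glia, at 114, 0.172 and 7.19 CPM. A direction between libraries is therefore one between labels, and the age order behind it is not known.

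Levels are CPM of all UMIs summed over a class. UMIs were read at the 3′ end of transcripts and were not scaled by length, so a share of tubulin UMIs is not a share of protein. Because tubulin coding sequences are nearly identical, reads from shared stretches can be lost or split between isotypes, and levels of single isotypes are uncertain to that extent. Over the excitatory lineage, bounds lay within 10.7% of the value for levels of 50 CPM or more, and within 2.80% for levels of 1000 CPM or more. Bounds of isotype shares of that lineage lay within 0.482 percentage points of the share, and over all classes but the erythroid cells within 1.47.

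The stretch before the start site was read for all 10 genes from RefSeq (rat build GRCr8) and searched on both strands for 5 short motifs, chosen with the levels known. Shown here are the 250 bases before the start of Tuba1c, Tubb4b, Tuba1a and Tubb2b, and the last 120 bases before the start of Tubb3 and Tubb2a. Tuba1c and Tubb4b had the largest ratios of radial glia with a G2M cell cycle score over those scored neither S nor G2M (below). Tuba1a is the leading neuronal alpha isotype. Capitals mark CCAAT, or ATTGG where it lies on the other strand, and also TTTGAA and TATAAA. The windows of 250 bases (120 for Tubb3 and Tubb2a) lie at chr7:132070734-132070983 on the plus strand (Tuba1c), chr3:28438456-28438705 on the minus strand (Tubb4b), chr7:131995820-131996069 on the minus strand (Tuba1a), chr17:30952836-30953085 on the plus strand (Tubb2b), chr19:68365567-68365686 on the plus strand (Tubb3) and chr17:31002066-31002185 on the plus strand (Tubb2a).
Tuba1c: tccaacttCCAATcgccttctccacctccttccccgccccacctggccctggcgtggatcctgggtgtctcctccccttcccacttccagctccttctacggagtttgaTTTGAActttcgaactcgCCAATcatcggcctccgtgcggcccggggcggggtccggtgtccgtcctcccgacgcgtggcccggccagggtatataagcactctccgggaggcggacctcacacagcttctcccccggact
Tubb4b: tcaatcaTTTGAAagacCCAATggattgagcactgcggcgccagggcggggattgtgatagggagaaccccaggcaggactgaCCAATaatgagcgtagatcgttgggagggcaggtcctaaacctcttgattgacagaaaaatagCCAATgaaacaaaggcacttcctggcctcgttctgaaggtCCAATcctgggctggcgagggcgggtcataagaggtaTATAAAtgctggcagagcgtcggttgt
Tuba1a: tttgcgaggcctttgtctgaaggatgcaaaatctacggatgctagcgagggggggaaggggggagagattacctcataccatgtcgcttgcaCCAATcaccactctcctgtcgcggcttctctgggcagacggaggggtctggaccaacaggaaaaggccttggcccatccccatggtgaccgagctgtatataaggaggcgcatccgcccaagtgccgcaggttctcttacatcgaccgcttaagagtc
Tubb2b: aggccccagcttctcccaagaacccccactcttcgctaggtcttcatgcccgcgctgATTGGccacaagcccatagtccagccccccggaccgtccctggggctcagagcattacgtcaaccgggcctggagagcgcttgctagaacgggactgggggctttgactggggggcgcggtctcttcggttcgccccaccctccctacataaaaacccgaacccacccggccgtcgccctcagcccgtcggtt
Tubb3: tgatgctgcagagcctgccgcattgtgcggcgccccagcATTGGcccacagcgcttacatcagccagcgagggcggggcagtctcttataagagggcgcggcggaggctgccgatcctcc
Tubb2a: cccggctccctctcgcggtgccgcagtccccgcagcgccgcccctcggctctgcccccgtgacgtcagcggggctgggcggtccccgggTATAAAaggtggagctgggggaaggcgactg
The CCAAT box, a binding site of the NF-Y factor, was present in 9 of the 10 genes and in 34.3% of the 27457 promoters searched in the same way. Tubb2a was the gene without it, and Tubb4b had 4 copies. TTTGAA, the core of the cell cycle homology region found before many mitotic genes, was present in Tuba1c and Tubb4b, and in 16.03% of all promoters. TATAAA was present in Tubb2a and Tubb4b and in 13.1% of all, and it lay within 31 bases of the start in both. The GC box GGGCGG, left in lower case above, was present in 8 of the 10 and in 32.4% of all. The members' windows held from 52.0% (Tubb4b) to 80.4% (Tuba1b) G and C, against a median of 52.0% over all promoters. The share over all promoters thus comes from windows of another make-up. A neural E-box, CAGATG, was present in Tubg1, 31 bases before the start, and in 13.7% of all. These matches describe letters in the window and nothing about binding.

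Along the excitatory lineage, summed tubulin was lowest in radial glia and intermediate progenitors and highest in maturing neurons. In radial glia the 10 genes took 16154 CPM in E14, 11416 in E16 and 12917 in E18. In intermediate progenitors they took 15843, 15986 and 14665 CPM, so the 3 libraries lay closer together there. Newborn neurons had 31223 CPM in E14 and 20004 in E18, not-split neurons 36517 and 33889, and maturing neurons 47274 and 41789. In both libraries the order ran from newborn to not split to maturing. The neurons led by Calb1 in E16 had 25477 CPM, between the values of newborn neurons in the other libraries.

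On the log2 scale with 1 CPM added, summed tubulin of newborn neurons over radial glia was 0.95 (interval 0.94 to 0.96) in E14 and 0.63 (0.62 to 0.64) in E18. These ratios rest on which clusters count as newborn. A cluster of 225 cells led by Crym, named newborn by its markers, had 42788 CPM of tubulin, and the other newborn clusters 17937 and 22177 CPM. Of its cells, 185 came from E14 and 40 from E18. Without it, an alternative chosen after seeing the data, the ratios were 0.45 and 0.48. With newborn, not-split and maturing neurons pooled, also chosen afterwards, they were 1.38 and 1.26. Maturing neurons over radial glia gave 1.55 in E14 and 1.69 in E18. Intermediate progenitors over radial glia gave -0.03, 0.49 and 0.18 in label order.

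**Figure D1:**
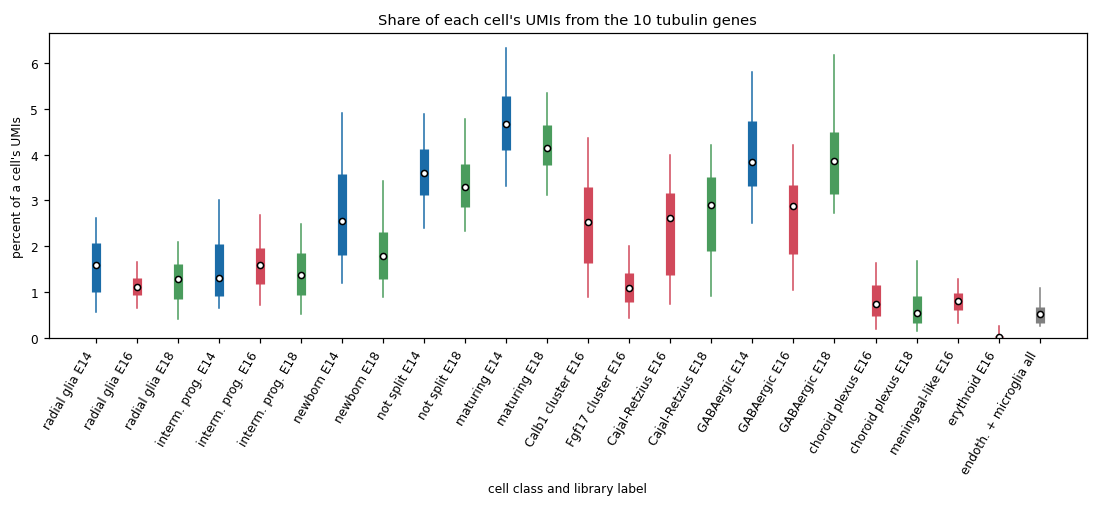
Share of each cell's UMIs from the 10 tubulin genes, in percent, for each class and library, with white points for medians over cells, thick bars for the interquartile range, thin lines for the 5th to 95th percentile and colour for the library label (blue E14, red E16, green E18, grey pooled). Medians were 1.11% to 1.58% in radial glia and 4.15% to 4.68% in maturing neurons.

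Per cell, tubulin transcripts took a median of 1.58% of UMIs in E14 radial glia, 1.11% in E16 and 1.28% in E18. In maturing neurons the medians were 4.68% in E14 and 4.15% in E18, and in E14 the 5th percentile of these cells, 3.31%, lay above the 95th percentile of E14 radial glia, 2.63%. Tuba1a alone was at 24238 CPM in E14 maturing neurons.

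A gene counts as measured at 5 CPM or more on average over both classes, and as called when its levels differed at least 2-fold. Of the 10 genes, all measured, 1 was higher and 4 lower in intermediate progenitors than in radial glia of E14, where 4.66% of all measured genes were higher and 8.61% lower. In E16 the members' counts were 1 higher and 2 lower, against 5.21% and 8.02% of all genes. Both lower calls, Tubb2a at -1.05 and Tubb6 at -1.01, were lost with 10 CPM added, at -0.88 and -0.67. The counts were 1 and 3 in E18, against 4.61% and 7.54%. In newborn neurons 2 were higher and 4 lower in both E14 (12.3% and 17.0% of all genes) and E18 (11.8% and 16.5%). With the strict filter the E14 newborn calls of Tuba1a, Tuba1b, Tuba1c and Tubb4b were lost, and so were those of Tuba1c and Tubb4b in E18. In maturing neurons 4 were higher and 4 lower in both E14 (13.8% and 22.3%) and E18 (17.6% and 20.9%). Tuba1a, Tubb2b and Tubb3 were higher in both, with Tubb5 in E14 and Tubb2a in E18. Tubb5 in E14, at 1.05, was no longer called at resolution 0.5 (0.96), with doublets kept (0.84) or with the strict filter (0.89). The cluster led by Calb1 in E16 also had 4 higher and 4 lower, against 14% and 16.3%. A count of 1 is already 10% of the members, so it is not read against these backgrounds. In neurons the called members lay in both directions, which the summed level does not show.

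**Figure D2:**
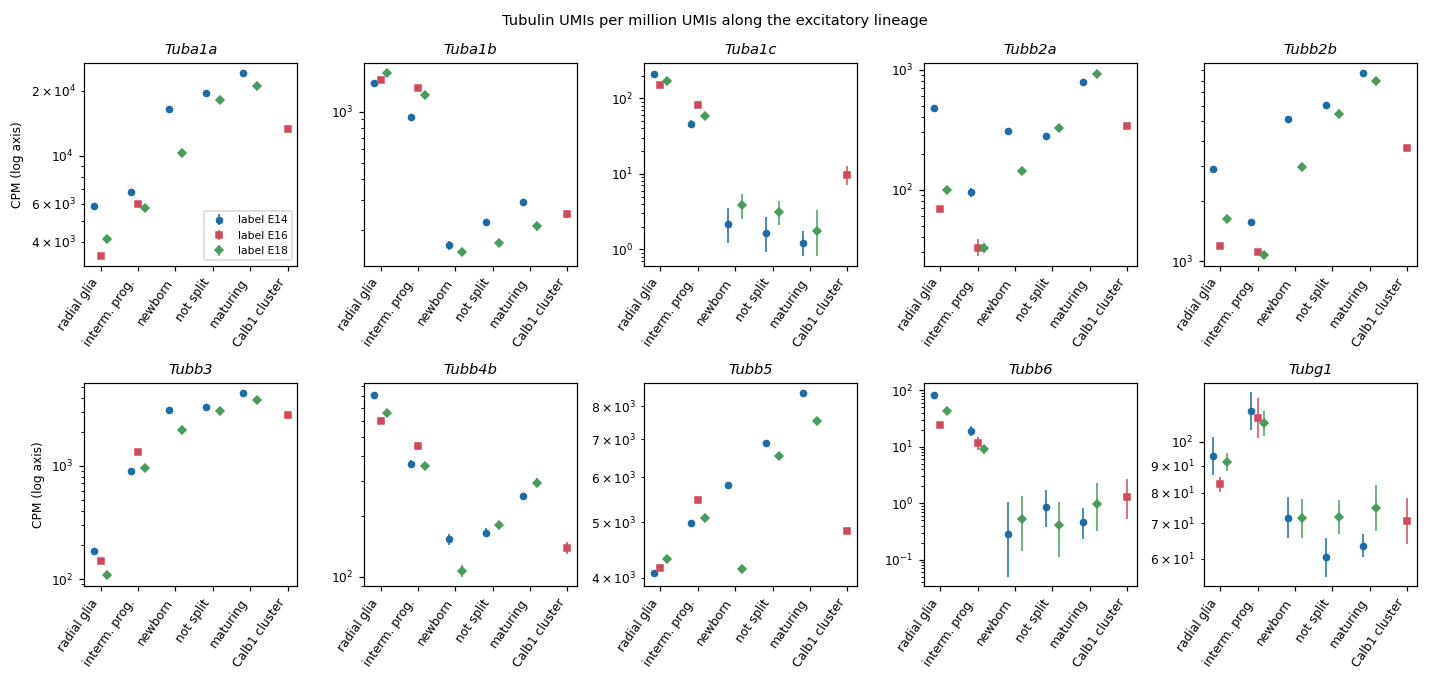
Level of each tubulin gene in CPM on a log axis, for the classes of the excitatory lineage and the neurons led by Calb1, with points for libraries (blue circles E14, red squares E16, green diamonds E18) and bars for exact Poisson 95% intervals. Tuba1a, Tubb2b and Tubb3 are highest in maturing neurons, Tuba1b, Tuba1c, Tubb4b and Tubb6 in radial glia.

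Tuba1a, the alpha isotype that makes up most alpha tubulin of migrating neurons, had more UMIs than any other member in neurons. It was at 5890, 3444 and 4126 CPM in radial glia and 6822, 6017 and 5720 in intermediate progenitors. Newborn neurons had 16456 CPM in E14 and 10351 in E18, and maturing neurons 24238 and 20960. Each neuron class lay above every progenitor class. Over radial glia of its library the log2 ratio was 1.48 in E14 newborn neurons and 1.33 in those of E18. The E14 call was lost without the cluster led by Crym (0.87), with the strict cell filter (0.85) and at the lower cluster resolution (0.89). The ratio was 2.04 and 2.34 in maturing neurons of E14 and E18.

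Tuba1b, a widely expressed alpha isotype, ran the other way. Its level was 1468, 1544 and 1693 CPM in radial glia, 936, 1375 and 1258 in intermediate progenitors, and 163 and 148 in newborn neurons of E14 and E18. Maturing neurons had 292 and 210 CPM, above the newborn neurons of the same library. The log2 ratio of newborn neurons over radial glia was -3.17 in E14 and -3.50 in E18. With the strict cell filter it was -0.45 in E14, and the call was lost, and -1.47 in E18.

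Tuba1c, a minor alpha isotype, was nearly confined to progenitors within this lineage. Radial glia had 210, 153 and 171 CPM and intermediate progenitors 46.0, 82.6 and 59.0. In neurons it was near 0: newborn neurons had 2.16 CPM (15 UMIs) in E14 and 3.81 (29 UMIs) in E18, and maturing neurons 1.21 and 1.75. The log2 ratio of newborn neurons over radial glia was -6.06 in E14 and -5.16 in E18 with 1 CPM added. With the strict cell filter these ratios were -0.55 and -0.97, and both calls were lost.

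As shares, the alpha transcripts passed from a mix to nearly pure Tuba1a. In radial glia Tuba1a made up 77.8%, 67.0% and 68.9% of alpha UMIs in label order, Tuba1b 19.4%, 30.0% and 28.3%, and Tuba1c 2.77% to 2.97%. In intermediate progenitors Tuba1a made up 80.5% to 87.4%. Over the 7 excitatory neuron groups, the cluster led by Calb1 included, it made up 98.1% to 99.1%, and Tuba1b 0.923% to 1.83%. These 2 sets of values do not overlap.

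**Figure D3:**
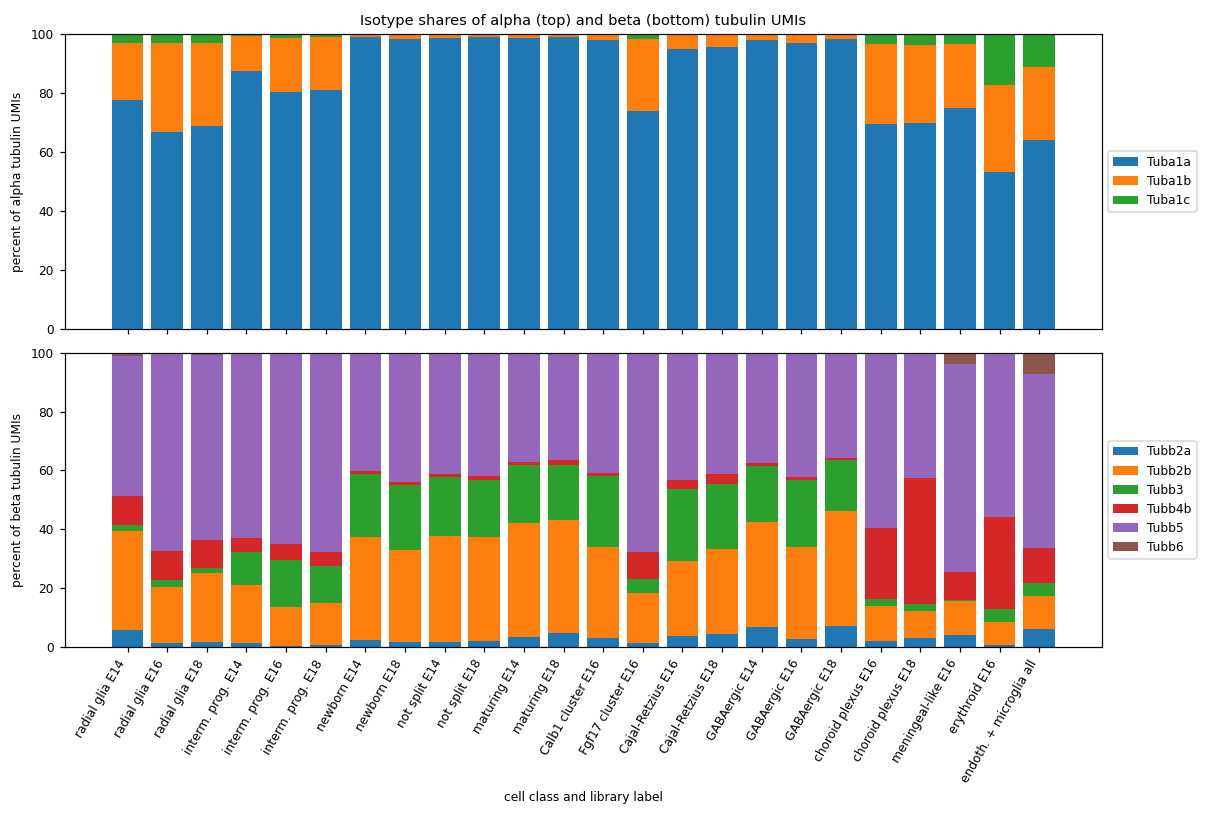
Stacked bars of the share of each isotype in the alpha tubulin UMIs (top, percent) and in the beta tubulin UMIs (bottom, percent) of each class and library. Tuba1a fills over 98% of the alpha bar in the excitatory neuron classes, and Tubb4b (red) is widest in choroid plexus cells of E18.

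Among beta isotypes, Tubb3, the isotype used to mark neurons, had the highest ratio of each later class over radial glia. It was at 177, 146 and 109 CPM in radial glia, and at 899, 1326 and 955 CPM in intermediate progenitors. Newborn neurons had 3107 CPM in E14 and 2063 in E18, and maturing neurons 4451 and 3862. The log2 ratio of intermediate progenitors over radial glia was 2.34, 3.18 and 3.12 in label order, and that of newborn neurons 4.13 in E14 and 4.23 in E18. With doublets kept, the E14 intermediate progenitor ratio was 0.58 and the call was lost, that of E18 was 2.14, and the newborn ratios were 2.41 and 3.26.

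Free RNA could bear on the low values of Tubb3. In endothelial, microglial and meningeal cells, which should lack it, Tubb3 was at 217 CPM in E14 (28 cells, interval 186 to 252), 9.23 in E16 (144 cells, 5.64 to 14.3) and 70.2 in E18 (55 cells, 54.7 to 88.9). In E14 the interval of radial glia, 166 to 188 CPM, overlapped that of these 28 cells. The part of free RNA in the level of E14 radial glia was not tested. The E14 ratios above therefore rest on a level that is not separated from that of these cells. In E16 and E18 radial glia lay above the endothelial, microglial and meningeal cells. At 2000 UMIs per cell, Tubb3 had a UMI in 27.5%, 24.6% and 18.1% of radial glia and 72.1%, 87.1% and 75.4% of intermediate progenitors. The share was 2.50% of meningeal cells of E16 and 11.7% of endothelial and microglial cells of all libraries. Unthinned, with median depths of 12633 to 13556 UMIs in radial glia and 12564 in the meningeal cells, the shares were 64.6% to 83.5% and 11.7%. For the endothelial and microglial cells, at a median of 18262 UMIs, the unthinned share was 38.3%.

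If every Tubb3 UMI in E14 radial glia had come from RNA with the make-up of the whole library, 1013 of the 5890 CPM of Tuba1a there, 349 of the 2875 CPM of Tubb2b and 29.5 of the 476 CPM of Tubb2a would have come with it. The levels measured in the E14 endothelial, microglial and meningeal cells were higher, at 2332 CPM for Tuba1a, 513 for Tubb2b and 128 for Tubb2a, and lay below those of radial glia. The part of free RNA in these levels was not tested. In E16 and E18 the Tubb2a levels of radial glia, 69.0 and 99.3 CPM, lay below those of the endothelial, microglial and meningeal cells, 158 and 194 CPM.

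Tubb2b, a beta isotype of migrating neurons and radial glia, was at 2875, 1192 and 1622 CPM in radial glia. Intermediate progenitors had less in every library, 1564, 1113 and 1074 CPM. Newborn neurons had 5129 and 2966 CPM in E14 and E18, and maturing neurons 8759 and 7933. Thus the level was lowest in the intermediate class and highest in the last. Over radial glia, newborn neurons had log2 ratios of 0.83 and 0.87, short of 2-fold, and maturing neurons 1.61 and 2.29. With the strict filter the E14 newborn ratio was -0.53, so its direction turned, and without the cluster led by Crym it was 0.27. Among beta UMIs its share was 33.9%, 19.3% and 23.7% in radial glia and 31.1% to 38.6% in excitatory neurons.

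Tubb2a, the close relative of Tubb2b on the same chromosome, differed between the libraries' radial glia more than any other member. They had 476 CPM in E14, 69.0 in E16 and 99.3 in E18. Intermediate progenitors had 94.8, 32.8 and 32.7 CPM, the low point of the lineage in each library. Newborn neurons had 310 CPM in E14 and 143 in E18, not-split neurons 280 and 329, and maturing neurons 788 and 926. Against radial glia of the same library, newborn neurons were thus lower in E14, at a log2 ratio of -0.62, and higher in E18, at 0.52. Without the cluster led by Crym the ratios were -1.39 and -0.03, so the higher value in E18 was lost. The E18 ratio was also below 0 with the strict filter (-0.10), at resolution 0.5 (-0.20) and with tubulin genes allowed in the clustering (-0.12). With the neuron classes pooled both ratios were above 0, at 0.31 in E14 and 2.01 in E18. The neurons led by Calb1 in E16 had 337 CPM, at a ratio of 2.27.

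Tubb5, a beta isotype of most cells, was the most evenly spread of the abundant beta genes. It was at 4068, 4156 and 4305 CPM in radial glia, and at 4985, 5466 and 5089 in intermediate progenitors. Newborn neurons had 5830 CPM in E14 and 4149 in E18, and maturing neurons 8428 and 7524. As a share of beta UMIs it was 47.9%, 67.1% and 63.0% in radial glia and 36.6% to 44.0% in excitatory neurons. Its level was higher in maturing neurons while its share was lower there than in radial glia, since Tubb2b and Tubb3 were higher by more.

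Tubb4b, a widely expressed isotype that also builds cilia, was at 813, 605 and 657 CPM in radial glia, or 9.57% to 9.76% of beta UMIs. It was at 364, 452 and 359 CPM in intermediate progenitors and 154 and 107 in newborn neurons of E14 and E18. Maturing neurons had 252 and 295 CPM, above the newborn neurons of their library. The log2 ratio of newborn neurons over radial glia was -2.40 in E14 and -2.60 in E18. With the strict cell filter these ratios were -0.26 and -0.61, and both calls were lost.

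Tubb6, a minor beta isotype, was at 84.2, 24.2 and 43.4 CPM in radial glia and 19.1, 11.5 and 9.06 in intermediate progenitors. In newborn neurons it had 2 UMIs in E14 (0.288 CPM) and 4 in E18 (0.526 CPM). The interval of the log2 ratio to radial glia, with nothing added, ran from -11.24 to -6.33 in E14 and from -8.25 to -5.01 in E18. With 1 CPM added the ratios were -6.05 and -4.86, and with the strict filter -1.38 and -3.60. Maturing neurons had 11 and 5 UMIs, so the isotype was at or near 0 in every excitatory neuron class.

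Tubg1, the gamma tubulin of the centrosome, had the narrowest range along the lineage. It was at 94.0, 82.9 and 91.5 CPM in radial glia, 114, 111 and 108 in intermediate progenitors, 71.8 and 71.6 in newborn neurons of E14 and E18, and 63.5 and 74.98 in maturing neurons. Intermediate progenitors had the highest level in all 3 libraries, and no class ratio reached 2-fold along the excitatory lineage.

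The 24 class and library values of each gene can be put in order, and neighbours in that order often could not be separated by counting error. Intervals of neighbours overlapped in 21 of 23 pairs for Tubg1, 19 for Tubb6, 16 for Tuba1c, 15 for Tubb4b, 14 for Tubb2a, 11 for Tuba1b, 9 for Tubb3, 8 for Tubb5, 6 for Tubb2b and 4 for Tuba1a. Spread between embryos is not known and would widen them.

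Within radial glia the isotypes were compared by cell cycle score, to see which of them differed between cells called S, G2M or neither. Cells of neither call were not shown to be outside the cycle. Each cell was thinned to 2000 UMIs and scored with 42 S and 50 G2M genes, from which the tubulin genes were left out. A G2M call covered 179 of 400 scored cells in E14, 1595 of 2998 in E16 and 894 of 1800 in E18, and neither call applied to 125, 150 and 272 cells. Between 11.5% and 13.7% of cells lay within 0.05 of a boundary between calls. Free RNA enters such scores, and its part was not tested.

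Tuba1c had the largest difference. Its level was 20.1 CPM in cells of neither call, 24.6 in S and 373 in G2M in E14. In E16 it was 42.7, 51.2 and 227 CPM, and in E18 13.1, 18.4 and 301. The log2 ratio of G2M over neither was 4.15, 2.38 and 4.42 in label order. With the loose cell filter the E16 ratio was 0.92 and the call was lost. The S ratio was 0.28, 0.26 and 0.45, and over the alternatives it ran from -1.20 in E16 to 1.22 in E14. In the clustering, made without tubulin genes, Tuba1c was the leading gene of a mitotic radial glia cluster of 418 cells at 634 CPM, and the second after Ube2c in another of 757 cells at 413 CPM.

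Tubb4b was also highest in G2M, and its S cells lay above those of neither call in each library as well. Its level was 121, 267 and 1354 CPM in cells of neither call, S and G2M of E14, 191, 254 and 866 in E16, and 92.3, 217 and 1053 in E18. The log2 ratios of G2M over neither were 3.47, 2.17 and 3.50. Tubb6 had ratios of 3.23, 2.17 and 3.09, from levels of 12.47, 5.41 and 6.06 CPM in the cells of neither call.

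Several members were past 2-fold already in S: Tubb6 in all 3 libraries (2.26, 1.76 and 2.20), Tuba1b, Tubb4b and Tubb5 in E14 and E18, and Tubb2a and Tubg1 in E14. Tuba1b was at 407, 1453 and 1957 CPM in neither, S and G2M of E14, at 757, 1314 and 1751 in E16 and at 488, 1488 and 2078 in E18. Its G2M ratio was 2.26, 1.21 and 2.09, and in E16 it was 0.46 to 0.90 under 4 alternatives, which lost the call. The S ratio was 1.83, 0.79 and 1.61 for Tuba1b, 1.13, 0.40 and 1.23 for Tubb4b and 1.22, 0.32 and 1.04 for Tubb5. In E14 it was 1.03 for Tubb2a and 1.30 for Tubg1. The S calls of Tuba1b and Tubg1 held under all 9 alternatives, and the others were lost under at least 1, apart from those of Tubb6 in E14 and E18. With doublets kept the S ratio of Tubb5 was 0.58 in E14 and 0.62 in E18, and that of Tubb4b 0.87 and 0.80. The S call of Tubb5 in E18 held with 10 CPM added alone, and the remaining alternatives gave 0.91 to 0.99. That of Tubb4b in E18 was also lost with the strict filter (0.82), at resolution 0.5 (0.96) and in another thinning draw (0.93). With the strict filter the S ratio of Tubb2a in E14 was 0.40. S is the phase of DNA replication, before the spindle forms. Tubb5 had G2M ratios of 1.38, 0.66 and 1.35, and with doublets kept those of E14 and E18 were 0.69 and 0.93. Tubg1, past 2-fold in G2M in E14 alone (1.07, and 0.93 with doublets kept), was higher in S, at 121, 95.5 and 106 CPM, than in G2M, at 103, 76.8 and 90.4 CPM, in each library. Tubb3 had G2M ratios of -0.04, -0.48 and -0.39, and Tuba1a 0.63, 0.09 and 0.87. Those of Tubb3 turned direction with the strict filter, at 0.15, 0.73 and 0.13, and those of Tuba1a were -0.06, 0.0012 and 0.29 with doublets kept. Under the alternatives Tuba1a turned below 0 in E14 and stayed above 0 in E16 and E18.

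In G2M over neither, 6 of the 10 genes were called higher in E14, 4 in E16 and 5 in E18, and 0 lower. Over all measured genes 6.66% were higher and 3.16% lower in E14, 4.63% and 1.86% in E16, and 5.05% and 1.19% in E18. Tuba1b, Tuba1c, Tubb4b and Tubb6 were called higher in all 3 libraries, and the same 4 genes were called lower in newborn neurons. The share of all genes called in both ways was not counted, so this overlap has no background. With the strict filter the newborn calls of Tuba1c and Tubb4b were lost in both libraries, and that of Tuba1b in E14.

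**Figure D4:**
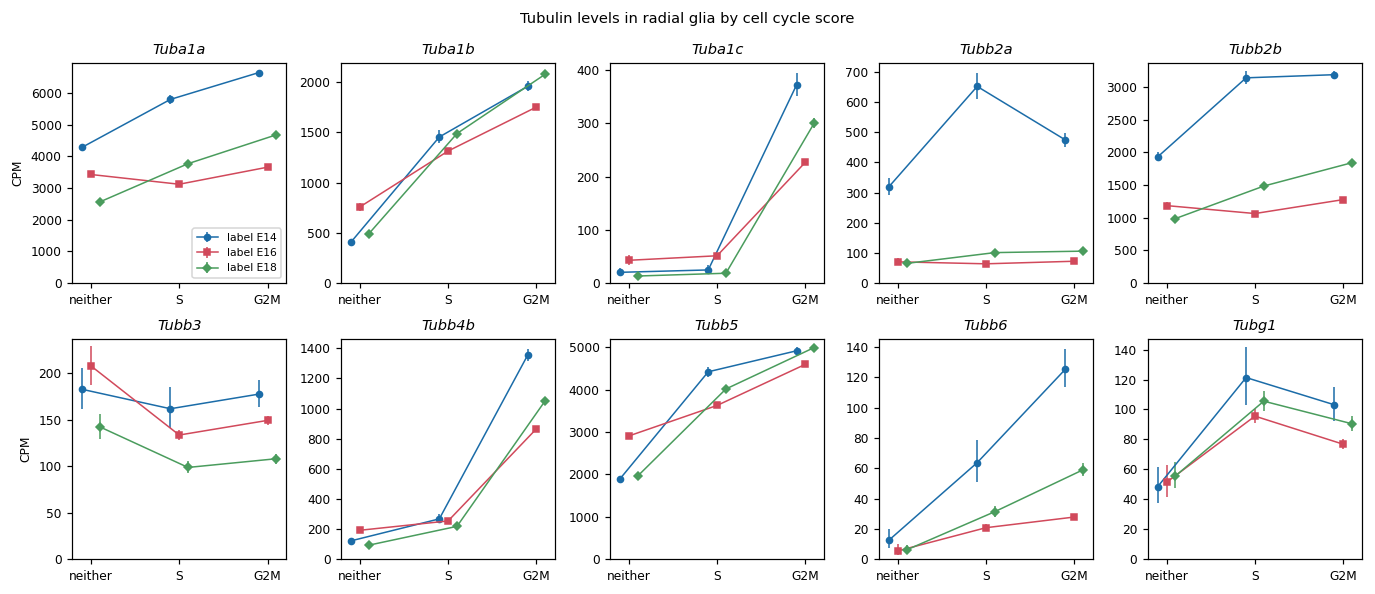
Level of each tubulin gene in CPM (axes from 0) in radial glia called neither, S or G2M, joined by lines within a library (blue circles E14, red squares E16, green diamonds E18), with bars for exact Poisson 95% intervals. Tuba1c and Tubb4b are highest in G2M in each library.

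Between libraries, the members of radial glia differed mostly by being higher in E14. In E16 over E14, 0 were called higher and 3 lower, against 2.41% and 7.29% of all genes. These were Tubb2a at a log2 ratio of -2.77, Tubb6 at -1.76 and Tubb2b at -1.27. In E18 over E14, 0 were called higher and 1 lower, Tubb2a at -2.25, against 0.99% and 3.26% of all genes. In E18 over E16, 0 were called in either direction, against 1.99% and 0.682%. The first 2 of these comparisons share the E14 library.

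The make-up of radial glia by phase moved with the library, since cells of neither call were 31.3% in E14, 5.00% in E16 and 15.1% in E18. Within each phase, E14 was again the highest for the members that differed. Tubb2a in cells of neither call was 319, 70.3 and 65.0 CPM in label order, in S 653, 63.7 and 101, and in G2M 475, 72.2 and 106. Tubb2b was 1935, 1186 and 988 CPM in cells of neither call and 3192, 1278 and 1844 in G2M. Tubb6 in G2M was 126, 27.8 and 59.0 CPM.

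In newborn neurons, where 8 members were measured, 0 were called higher and 1 lower in E18 than in E14, against 1.67% and 3.15% of all genes. The called gene was Tubb2a at -1.11, and the call was lost under 5 alternatives, at -0.54 with the strict filter to -0.93 with the loose filter. In maturing neurons 0 of 8 were called in E18 over E14, against 3.33% and 1.95%. Their log2 ratios ran from -0.47 for Tuba1b to 0.24 for Tubg1.

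Outside the excitatory lineage, cells of the GABAergic lineage, the future inhibitory interneurons, had summed tubulin of 41079, 27997 and 39983 CPM in label order. Their Tubb2a level was 1439 CPM in E14 and 1458 in E18, the highest of any class, and 380 in E16. From 55 to 74 cells stand behind each value. Their Tubb6 level was 0 UMIs in E14, which allows up to 9.01 CPM when 3 counts are taken as the limit, and 0 in E16, which allows up to 5.09. Cajal-Retzius cells, early neurons that secrete reelin, had 23410 CPM of tubulin in E16 and 26805 in E18. Their Tuba1b level, 557 and 591 CPM, stood above that of every excitatory neuron class and below that of every progenitor class.

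Choroid plexus cells, the ciliated epithelium that makes cerebrospinal fluid, had little tubulin and much of it as Tubb4b. The name of this cluster was close, as its markers averaged a log2 ratio of 3.48 for choroid plexus and 3.13 for the cortical hem. The choroid plexus markers summed to 31266 CPM in E16 and 112609 in E18. The sum of the 10 tubulin genes was 7973 CPM in E16 and 5336 in E18. Tubb4b was at 1013 and 1161 CPM, or 24.2% (interval 23.4 to 24.96) and 43.0% (41.5 to 44.5) of beta UMIs. These were the highest levels of that gene in any whole class. The radial glia called G2M, a part of their class, had 1354, 866 and 1053 CPM in label order. Tubb6 was highest in endothelial and microglial cells, at 199 CPM over 60 cells of all libraries, and next in meningeal cells of E16, at 156 CPM. Within the former, the 26 endothelial cells had 329 CPM and the 34 microglia 43.1. Tuba1c was highest there too, at 296 CPM, with 562 in microglia and 74.1 in endothelial cells. Erythroid cells of E16 had the least tubulin, 643 CPM.

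**Figure D5:**
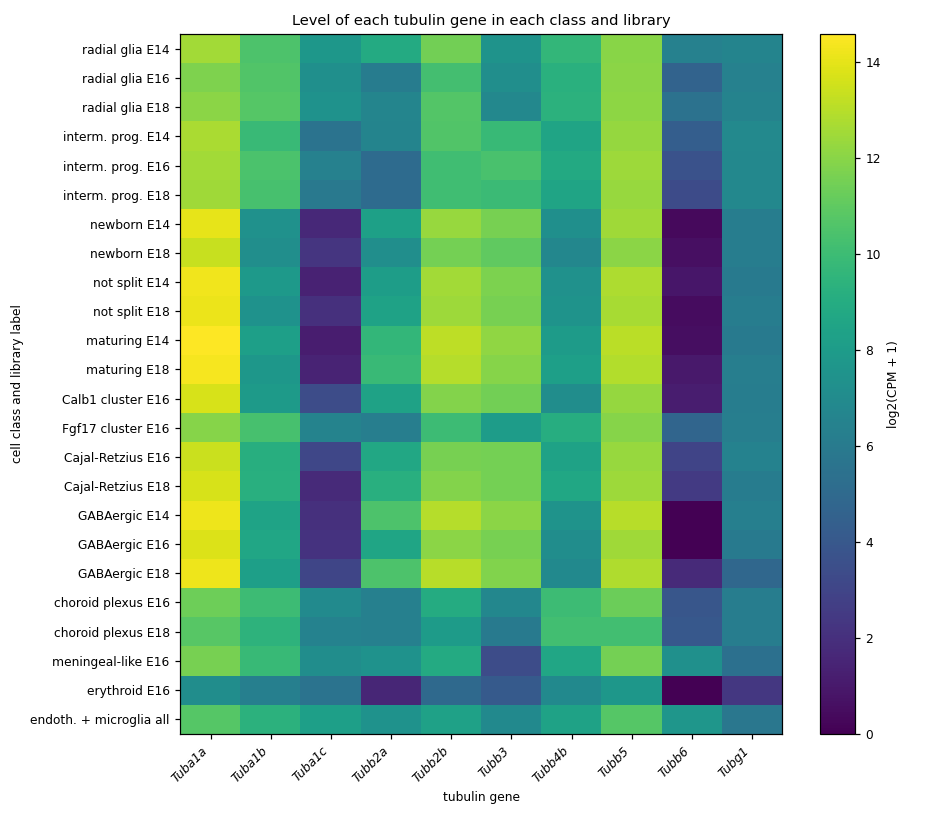
Map of the level of each tubulin gene, as log2(CPM + 1) in colour, with classes and their library labels in rows (24 values) and genes in columns. Tuba1c and Tubb6 are dark in all neuron rows, and the Tubb4b column is brightest in the choroid plexus rows.

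Alpha and beta UMIs were close to balance in all classes but the erythroid cells. Alpha made up 45.4% to 54.1% of alpha and beta UMIs together over 23 values. The erythroid cells of E16 lay outside that range at 40.6% (95% interval 38.7% to 42.5%). The alpha share was 45.4% to 47.1% in radial glia, 47.1% to 49.6% in intermediate progenitors and 50.8% to 54.1% in excitatory neurons.

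Other genes of the tubulin pathway were counted from lists, again with a 2-fold change between newborn neurons and radial glia. Of the tubulin-modifying enzymes, which add and remove chemical groups on tubulin, 6 of 17 measured were higher and 1 lower in E14, with a median log2 ratio of 0.57, and 5 and 2 in E18, with a median of 0.21. Over all genes 12.3% were higher and 17.0% lower in E14, and 11.8% and 16.5% in E18, with medians of -0.13 and -0.07. Matcap1, which removes the terminal tyrosine of alpha tubulin, was at 10.99 CPM in radial glia and 84.2 in newborn neurons of E14, and at 5.75 and 38.4 in E18. Ttll7, which adds glutamates, was at 8.62 and 45.9 CPM in E14 and 5.51 and 20.0 in E18. Atat1, the acetyltransferase of alpha tubulin, was at 43.8 and 161 CPM in E14 and 44.4 and 157 in E18.

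Of the gamma-tubulin ring complex and the proteins that recruit it, 0 of 15 measured were higher and 6 lower in E14, with a median of -0.80, and 1 and 5 in E18, with a median of -0.70, beside 17.0% and 16.5% of all genes lower and 12.3% and 11.8% higher. Haus4, an augmin subunit, was at 56.6 CPM in radial glia and 3.74 in newborn neurons of E14, and at 54.6 and 3.94 in E18. Haus1, another, was at 40.1 and 13.2 CPM in E14, and Cdk5rap2, a centrosome protein, at 55.9 and 23.0. Tubg1 itself had ratios of -0.38 and -0.35, and with the strict filter the E14 ratio was 0.37.

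Of 20 measured folding cofactors and chaperonin subunits, which bring new tubulin into its dimer, 0 were called in either direction in E14 and in E18, with medians of 0.07 and 0.02. The gene of that list with the largest average ratio, Tbcb, was at 246 and 380 CPM in radial glia and newborn neurons of E14, and next came Tbce at 37.9 and 53.7 and Cct6a at 432 and 278. Ttc5, which recognises new tubulin chains when their mRNA is degraded, was at 60.8 and 77.3 CPM in E14. Of 10 other tubulin isotypes 3 were measured. Tubb4a, a neuronal and glial beta isotype, was higher in newborn neurons, at 80.9 against 15.2 CPM in E14 and 50.2 against 16.2 in E18. Tube1, the epsilon tubulin of centrioles, was lower, at 10.6 against 40.6 CPM in E14 and 14.5 against 37.5 in E18.

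For each member, the genes of most similar pattern were sought among 6141 genes by Pearson's r of log2(CPM + 10) over 23 class and library values. The values share libraries and are not independent, so r is a description. They include the erythroid cells of E16, which lay far below the other classes for most members. Tuba1a was at 138 CPM there against a median of 8587 over 24 values, and Tubg1 at 4.15 against 71.7. How much of r rests on these cells was not tested. Nearest to Tuba1a were Jpt1 (r = 0.987), Stmn1 (0.985), a stathmin that binds tubulin dimers, and C12h12orf43 (0.980). Nearest to Tubb2b was Tuba1a (0.975), before Stmn1 (0.970) and Clip2 (0.964), and nearest to Tubb5 were Matr3 (0.972), Stmn1 (0.965) and Cfl1 (0.965). Tubb3 was closest to Soga3 (0.980), Parp6 (0.976) and Gprin1 (0.972). Tubb2a was closest to Ankrd12 (0.935), Apc (0.932) and Thra (0.925).

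The 5 remaining members had other neighbours. Tuba1b was closest to Dnajc9 (0.965), Hells (0.958) and Lsm2 (0.951). Tuba1c was closest to Spc24 (0.954), a kinetochore gene, Zfp36l1 (0.950) and Cmc2 (0.944). Among the 3 genes nearest to Tubb4b were Phf10 (0.909) and Etfa (0.90). Tubb6 was closest to Eif4ebp1 (0.950), Tln1 (0.947) and Rap1a (0.917). Among the 3 nearest to Tubg1 were Kif5b (0.936) and Capn7 (0.935). Among the members themselves, r was -0.85 between Tuba1c and Tubb3 and 0.84 between Tuba1c and Tubb6.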

How the data were processed

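The deposited matrices hold UMI counts per gene and barcode, whole numbers without normalization, which the authors made with Cell Ranger 6.0.1 (per the file headers) on build mRatBN7.2, per the submitters' processing notes. The protocol text in the labels also describes cultured cells and an antibody sort of human cells. Which of these steps the rat libraries went through is not known.

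Barcodes with at least 1000 genes and at most 10% mitochondrial UMIs were kept, 4444, 5193 and 5690 of 7100, 6707 and 6937 in label order. The highest Scrublet scores were then removed at 0.8% per 1000 cells (158, 216 and 259 cells), because the threshold set by Scrublet itself marked 0.0385% of E16 cells. All libraries were clustered together with scanpy 1.11.5 and leidenalg 0.10.2 (2000 variable genes without tubulin and pathway genes, 30 components, 15 neighbours, resolution 1, Python 3.11.15). Clusters were named from 14 marker lists. A name needed at least 3 markers raised 1.2-fold and detected in 20% of cells, and no other class with more markers among its 10 leading genes. The members, lists and markers were chosen with earlier results of these data known.

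UMIs were summed per class and library with at least 50 cells (endothelial and microglial cells were pooled over libraries). CPM carry exact Poisson intervals, shares exact Clopper-Pearson intervals, and log2 ratios have 1 CPM added, with intervals taken without it. With 1 library per label there is no test. All members are named. Pathway genes are named when among the 3 of their list, from 20 CPM, with the largest ratio of newborn neurons over radial glia averaged over libraries. E16 has no class of newborn neurons, so E14 and E18 were averaged. For each member the 3 genes of most similar pattern were sought, and 2 of these genes are not reported here. The scripts were tested on simulated data. Alternatives were other cell filters, doublets kept, other clusterings, another total, per-cell means, 10 CPM added and a 20 CPM minimum.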

Additional observations from a re-analysis of the deposited data

Results flagged for a closer look

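Tubb2a differed in direction between libraries. Its log2 ratio of newborn neurons over radial glia was 0.52 in E18 and -0.62 in E14, and that of not-split neurons over radial glia 1.72 in E18 and -0.76 in E14. Without the cluster led by Crym, an alternative added after seeing the data, the newborn ratios were -0.03 in E18 and -1.39 in E14, so the opposite direction was lost. It was also lost with the strict filter, at resolution 0.5, with tubulin genes allowed in the clustering and with the neuron classes pooled. Tubb2a was at 476 CPM in E14 radial glia and 99.3 in those of E18. Tubb5 had a ratio of newborn neurons over radial glia of 0.52 in E14 and -0.053 in E18. With 1 library per label these differences were not tested. A gene outside the list, LOC100364958, listed by RefSeq as Tubb2al1 and in no comparison above, had UMIs in kept cells of each library, 62 in E14, 33 in E16 and 50 in E18, or 0.00326% to 0.00394% of the UMIs of the 10 genes.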

How the results depend on the processing

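No paired analysis was possible because each label has 1 library. The main log2 ratios of summed tubulin were 0.95 and 0.63 for newborn neurons over radial glia in E14 and E18, 0.49 for intermediate progenitors over radial glia in E16 and -0.50 for radial glia of E16 over E14. In that order they were 0.42, 0.66, 0.24 and -0.45 with the strict cell filter (2000 genes, 5% mitochondrial), 0.76, 0.51, 0.42 and -0.75 with doublets kept, 0.98, 0.99, 0.40 and -0.47 at resolution 2, and 0.82, 0.59, 0.50 and -0.47 from per-cell means. Without the E18 value, which moved less than its interval, they were 0.78, 0.37 and -0.41 with the loose filter (500 genes, 20% mitochondrial), 1.17, 0.32 and -0.45 with a separate clustering of every library, and 1.01, 0.45 and -0.42 with tubulin, mitochondrial, ribosomal and haemoglobin UMIs left out of the total. The newborn ratios of E14 and E18 were 0.46 and 0.41 at resolution 0.5, 1.00 and 0.47 with tubulin and pathway genes allowed among the variable genes, 1.38 and 1.26 with the neuron classes pooled, and 0.45 and 0.48 without the cluster led by Crym. The cause was not tested. Among the member ratios recomputed (classes of the excitatory lineage, the neurons led by Calb1, libraries within a class, and S and G2M over neither), those past 2-fold kept their direction under each alternative that gave a value. Of these, 61 of 73 stayed past 2-fold with the strict filter, 71 of 81 with doublets kept, 11 of 13 without the cluster led by Crym and 23 of 26 by phase with another random draw in the thinning, added after seeing the data. Minor isotypes in neurons rest on few UMIs, and at this depth their levels near 0 cannot be ordered.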
